A study of Mus musculus with 8 samples.

Results

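The 10 genes described here are markers that the literature attaches to small and to resident, alternatively activated macrophages of the peritoneal cavity. They are *Cbr2*, *Folr2*, *Mrc1*, *Retnla*, *Clec10a*, *Lyve1*, *Ccr2*, *Cd226*, *Irf4* and *Cx3cr1*, and they were chosen by name out of the 48795 genes counted in each library. Each was found by its symbol in an annotation of the mouse genome GRCm38, and 8 of the 10 had enough reads to be tested, against 13040 of all genes. Peritoneal macrophages (pMacs) of 8 mice, 4 WT and 4 CD1d-KO, gave 1 library each of polyadenylated RNA, with the replicate numbers 1, 2, 3 and 5 in each genotype. The WT animals were littermate controls by the study's account of these libraries, and its methods list WT mice as C57BL/6. CD1d-KO mice lacked CD1d, the molecule that presents lipids to natural killer T cells. The study's methods name 2 sources of CD1d-KO mice, a cross of CD1d flox with PGK Cre and the strain B6.129S6-Del(3Cd1d2-Cd1d1)1Sbp/J. Which of them gave these libraries is not said in the labels. In both, CD1d is missing from every cell of the animal and natural killer T cells are missing too. Mice were age- and sex-matched and between 8 and 16 weeks old, with no age or sex given per library, and no treatment is named. Cells were recovered by lavage of the peritoneal cavity, and the study calls the sequenced pMacs purified. How they were purified is not stated for these libraries, while F4/80 beads are named for the stimulated cells and for the cells used for lipids.

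The mouse peritoneal cavity holds large macrophages, which are of embryonic origin, maintain themselves and depend on the transcription factor GATA6, and small macrophages, which are replaced from blood monocytes and carry MHC class II. Monocytes reach the cavity through the chemokine receptor CCR2, and the transcription factor IRF4 takes part in the development of the small cells, some of which display CD226. A further set of resident cells carries LYVE1, the folate receptor FOLR2 and the mannose receptor CD206 (encoded by *Mrc1*). IL-4 and IL-13, acting through STAT6, drive the alternative programme of macrophages, in which *Retnla*, *Mrc1* and *Clec10a* are used as markers.

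The question asked of these genes was whether CD1d-KO pMacs held less or more of them than WT pMacs. *Cbr2* and *Folr2* had about 43.1% and 49.1% of their mean WT level in CD1d-KO pMacs. For both, every CD1d-KO library lay below every WT library, which held for 0.905% of all tested genes. *Mrc1* stood at 66.7% of its mean WT level and was lower in 3 of 4 pairs. The other 5 tested genes, *Retnla*, *Clec10a*, *Lyve1*, *Ccr2* and *Irf4*, were each lower in 2 pairs and higher in 2. None of the 8 passed the thresholds in the quasi-likelihood test of edgeR after Benjamini-Hochberg adjustment, whereas DESeq2 called *Cbr2* lower.

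Sequences upstream of 3 of the genes are shown so that the pair whose libraries separated by genotype, *Cbr2* and *Folr2*, can be read beside *Retnla*, the most abundant of the 10. They are the 250 bases before a start of the gene in RefSeq (GRCm38.p6), written 5′ to 3′ on the strand of the gene. Matches to 4 short motifs are in capitals. *Folr2* has another start in RefSeq, whose window held no match, and the stretch shown was picked because its window held matches. The *Cbr2* stretch is chr11:120732022-120732271 on the minus strand, the *Folr2* stretch is chr7:101857191-101857440 on the minus strand and the *Retnla* stretch is chr16:48842359-48842608 on the plus strand.
Cbr2: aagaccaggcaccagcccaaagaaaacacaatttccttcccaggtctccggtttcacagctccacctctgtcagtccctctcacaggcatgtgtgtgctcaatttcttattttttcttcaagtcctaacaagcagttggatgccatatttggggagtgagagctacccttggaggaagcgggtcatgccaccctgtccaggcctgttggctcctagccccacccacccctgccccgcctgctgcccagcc
Folr2: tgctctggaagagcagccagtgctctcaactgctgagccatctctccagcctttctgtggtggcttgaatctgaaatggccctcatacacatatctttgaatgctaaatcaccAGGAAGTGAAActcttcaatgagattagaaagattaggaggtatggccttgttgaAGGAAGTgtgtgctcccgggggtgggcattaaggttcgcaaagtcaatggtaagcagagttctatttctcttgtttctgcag
Retnla: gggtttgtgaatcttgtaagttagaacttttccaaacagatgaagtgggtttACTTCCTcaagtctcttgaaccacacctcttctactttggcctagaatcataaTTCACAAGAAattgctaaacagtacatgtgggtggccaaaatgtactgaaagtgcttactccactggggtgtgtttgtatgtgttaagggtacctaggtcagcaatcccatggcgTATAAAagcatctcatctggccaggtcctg

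The motifs were TATAAA (the box bound by TBP), AGGAAGT (the core bound by PU.1 and other ETS factors), GGAANNGAAA (the joint site of PU.1 with IRF4 or IRF8) and TTCNNNNGAA (the spacing bound by STAT6), each searched on both strands of windows from 250 bases before to 50 after the start. In *Folr2* AGGAAGT matched at bases -137 to -131 and again at -82 to -76 from the start. GGAAGTGAAA, a match to the joint PU.1 and IRF motif, lay at -136 to -127 and overlapped the first of these. In *Retnla*, ACTTCCT, the opposite strand of AGGAAGT, lay at -198 to -192, TTCACAAGAA at -145 to -136 and TATAAA at -30 to -25. The *Cbr2* window held 1 match, TTCGGAAGAA, at bases 25 to 34 after the start and therefore outside the stretch shown. Of 32851 RefSeq windows of this length, TATAAA was in 13.6%, AGGAAGT in 9.35%, GGAANNGAAA in 2.72% and TTCNNNNGAA in 6.95%. Windows were found for 7 of the 10 genes, 2 of them for *Folr2*. *Irf4* held TATAAA at -26 to -21, *Mrc1* held ACTTCCT at -211 to -205, and none of the 4 motifs was in the windows of *Ccr2*, *Cx3cr1* or the second *Folr2* start. *Clec10a*, *Lyve1* and *Cd226* had no window in the table used. A match describes the letters and was not tested as a binding site.

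Between 13698864 and 19059432 reads were assigned to genes in a library. *Cd1d1*, the deleted gene, had 68.2 to 175 normalized counts in WT libraries and at most 1.14 in CD1d-KO replicates 2, 3 and 5, but 60.6 in the library labelled CD1d-KO replicate 1. That library goes against its label. Comparisons follow the labels, and without replicate 1 the median log2 fold change of the tested markers was -0.39 and 0 of them were called by edgeR or DESeq2. Normalized counts are counts scaled to a common library size, and they are comparable between libraries but not between genes. The cells had the genes that define peritoneal macrophages: 13 of 13 genes of the large macrophage list were tested, and their summed level ranged from 133200 to 146500 normalized counts over WT and from 140300 to 158000 over CD1d-KO libraries. The 7 genes of the MHC class II list summed to 16430 to 33510 in WT and 10600 to 42450 in CD1d-KO libraries, and the 8 B cell genes to 2964 to 8057 and 1928 to 13430. Of T cell, natural killer cell and neutrophil genes, *Ncr1* and *Ly6g* had 0 counts in each of the 8 libraries. In bulk RNA, fewer cells of a type and less RNA per cell cannot be told apart.

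Levels were compared between genes per transcript length, in TPM (transcripts scaled to a fixed total per library) as deposited. *Retnla*, which encodes the secreted protein RELMα, was the highest of the 10 in WT pMacs, at 461 ± 135 TPM (SD, n = 4), a mean above that of 98.1% of tested genes. *Folr2* followed at 23.0 ± 4.07 TPM, *Irf4* at 20.6 ± 5.92 and *Cbr2* at 16.9 ± 4.49. *Folr2* stood above *Irf4* in 3 of 4 WT libraries and *Irf4* above *Cbr2* in 4 of 4, although both gaps were smaller than the SDs. A lower group held *Clec10a* at 4.08 ± 2.27 TPM, *Mrc1* at 3.83 ± 1.29, *Lyve1* at 2.64 ± 1.47 and *Ccr2* at 2.30 ± 1.16. Neighbours in this group did not differ beyond their spread, since each stood above the next in only 2 or 3 of 4 libraries. *Cd226* at 0.440 ± 0.348 TPM and *Cx3cr1* at 0.295 ± 0.254 came last.

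In CD1d-KO pMacs *Retnla* was again first, at 429 ± 141 TPM, and *Cd226* and *Cx3cr1* were again last, at 0.537 ± 0.316 and 0.212 ± 0.198 TPM. *Irf4*, at 22.6 ± 11.5 TPM, stood above *Folr2*, at 11.7 ± 5.69, in 4 of 4 CD1d-KO libraries, the opposite order of their means in WT. *Cbr2* had 7.41 ± 2.42 TPM. *Mrc1*, *Ccr2*, *Clec10a* and *Lyve1* had mean levels from 1.95 to 2.60 TPM and could not be ordered. Where reads match several genes RSEM shares them out, so the levels of *Folr2*, *Clec10a* and *Ccr2* carry the uncertainty described with each of them.

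**Figure D1:**
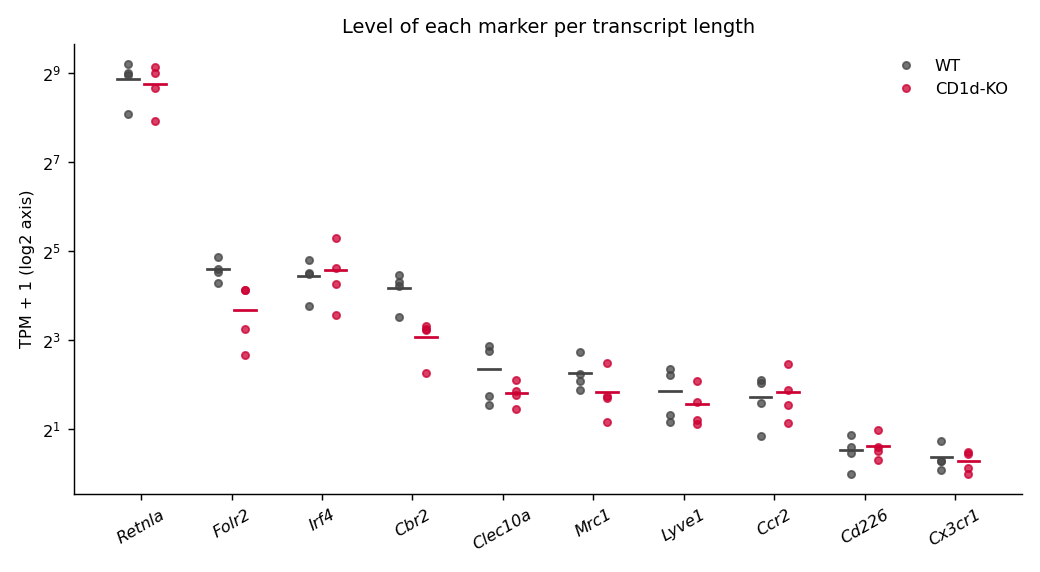
Level of each marker in TPM + 1 on a log2 axis, with 1 point per library, WT in grey and CD1d-KO in red, and a bar at the mean. *Retnla* lies far above the others in both genotypes, and the *Folr2* and *Cbr2* points of CD1d-KO pMacs lie below those of WT pMacs.

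*Cbr2* (ENSMUSG00000025150) encodes carbonyl reductase 2, an enzyme that reduces carbonyl compounds and is used as a marker of resident macrophages. It lies on chromosome 11 of GRCm38 from 120729489 to 120732114 on the minus strand. WT replicates 1, 2, 3 and 5 had 139, 116, 187 and 174 normalized counts of it. In the libraries labelled CD1d-KO replicates 1, 2, 3 and 5 the values were 77.3, 62.9, 41.1 and 84.6. The highest CD1d-KO library lay below the lowest WT library, and the CD1d-KO library was lower in 4 of 4 pairs.

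The mean of *Cbr2* over WT pMacs was 154 ± 32.5 normalized counts and over CD1d-KO pMacs 66.5 ± 19.2 (SD, n = 4 each). The log2 fold change was -1.20 (standard error 0.23, 95% interval -1.73 to -0.67), which is 2.30-fold lower, with an adjusted p = 0.0925 in edgeR's quasi-likelihood test and an unadjusted p = 0.000848. Within pairs, the log2 ratio of CD1d-KO to WT ranged from -2.19 in pair 3 to -0.85 in pair 1. DESeq2 gave a log2 fold change of -1.22 and an adjusted p = 0.00287, which passed. Without replicate 1, the pair with the doubtful label, edgeR gave -1.34 (adjusted p = 0.165) and DESeq2 -1.35 (adjusted p = 0.0395). The DESeq2 call was lost without replicate 1, 3 or 5 (adjusted p = 0.0395, 0.0875 and 0.0793) and kept without replicate 2. *Cbr2* is among the genes the study picked out of these libraries, so its difference is not independent evidence.

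*Folr2* (ENSMUSG00000032725) encodes folate receptor beta, which binds and takes up folate. It lies on chromosome 7 from 101839988 to 101857194 on the minus strand. In WT replicates 1, 2, 3 and 5 it had 229, 230, 233 and 178 normalized counts. In the libraries labelled CD1d-KO replicates 1, 2, 3 and 5 it had 141, 83.9, 56.1 and 146. These 2 sets of libraries did not overlap either, and 3 of the WT values were within a few counts of one another.

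The *Folr2* means were 217 ± 26.4 in WT and 107 ± 44.0 in CD1d-KO pMacs (SD, n = 4 each). The log2 fold change was -1.06 in edgeR (standard error 0.26, 95% interval -1.67 to -0.46, adjusted p = 0.160, unadjusted p = 0.00389), or 2.09-fold lower. Pairs ranged from a log2 ratio of -2.06 in pair 3 to -0.28 in pair 5. DESeq2 gave -1.10 with an adjusted p = 0.0142, above the threshold of 0.01. Without replicate 1, edgeR gave -1.21 (adjusted p = 0.302). In DESeq2 the adjusted p of *Folr2* was 0.0692, 0.0891 and 0.212 without replicates 1, 2 and 3, and 0.0053 without replicate 5.

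*Folr2* counts were not whole in any library. Of the 75-base stretches of its transcripts, 47.1% also occur, on the opposite strand, in *Gm10602*, which overlaps it. The counts given to *Gm10602* were 5.51% to 18.3% of those of *Folr2*. The sum of both genes was lower in CD1d-KO in 4 of 4 pairs, with a mean of 240 normalized counts over WT and 120 over CD1d-KO libraries. No strand setting is stated for the counting, and without strand the reads of the 2 genes cannot be told apart. What made the counts fractional was not tested.

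*Mrc1* (ENSMUSG00000026712), on chromosome 2 from 14229392 to 14332057, encodes the mannose receptor CD206, which takes up glycoproteins ending in mannose. WT replicates 1, 2, 3 and 5 had 162, 153, 314 and 172 normalized counts. The CD1d-KO values were 107, 68.6, 133 and 225 in the same order. Replicate 3 was high among WT libraries and replicate 5 among CD1d-KO libraries, 3 of the CD1d-KO libraries lay below every WT library, and the groups overlapped.

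The *Mrc1* log2 fold change was -0.62 (standard error 0.26, 95% interval -1.23 to -0.02, adjusted p = 0.387 from edgeR, unadjusted p = 0.0439). Pair 5 went the other way from the rest, with a log2 ratio of 0.39 against -1.24 to -0.60. Without replicate 5 the log2 fold change was -0.99 in edgeR, with an unadjusted p = 0.00099 but an adjusted p = 0.209. Without replicates 1, 2 and 3 it was -0.63, -0.47 and -0.41, with unadjusted p = 0.0825, 0.134 and 0.203 in edgeR.

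The study applied its thresholds (adjusted p under 0.01, fold above 1.5) in DESeq2. With the same thresholds edgeR called no member and 5 of 13040 genes, or 0.0383%. At an adjusted p under 0.05 with no fold threshold, 0 members and 0.406% of genes passed. At an unadjusted p under 0.05, 3 of the 8 tested members were lower in CD1d-KO, against 5.01% of all genes, and 0 were higher, against 7.35%. DESeq2 called 1 of the 8 by the study's thresholds, *Cbr2*, where 0.873% of genes were called, and 2 at an adjusted p under 0.05, *Cbr2* and *Folr2*, against 2.53%. Being lower in 4 of 4 pairs held for 2 of the 8 and for 1310 of the 13040 genes. Having every CD1d-KO library below every WT library held for the same 2 and for 0.905% of genes. The median log2 fold change of the 8 members was -0.33, beside a median of 0.005 over all genes tested, and it ranged over single pairs from -1.02 in pair 3 to 0.37 in pair 5.

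**Figure D2:**
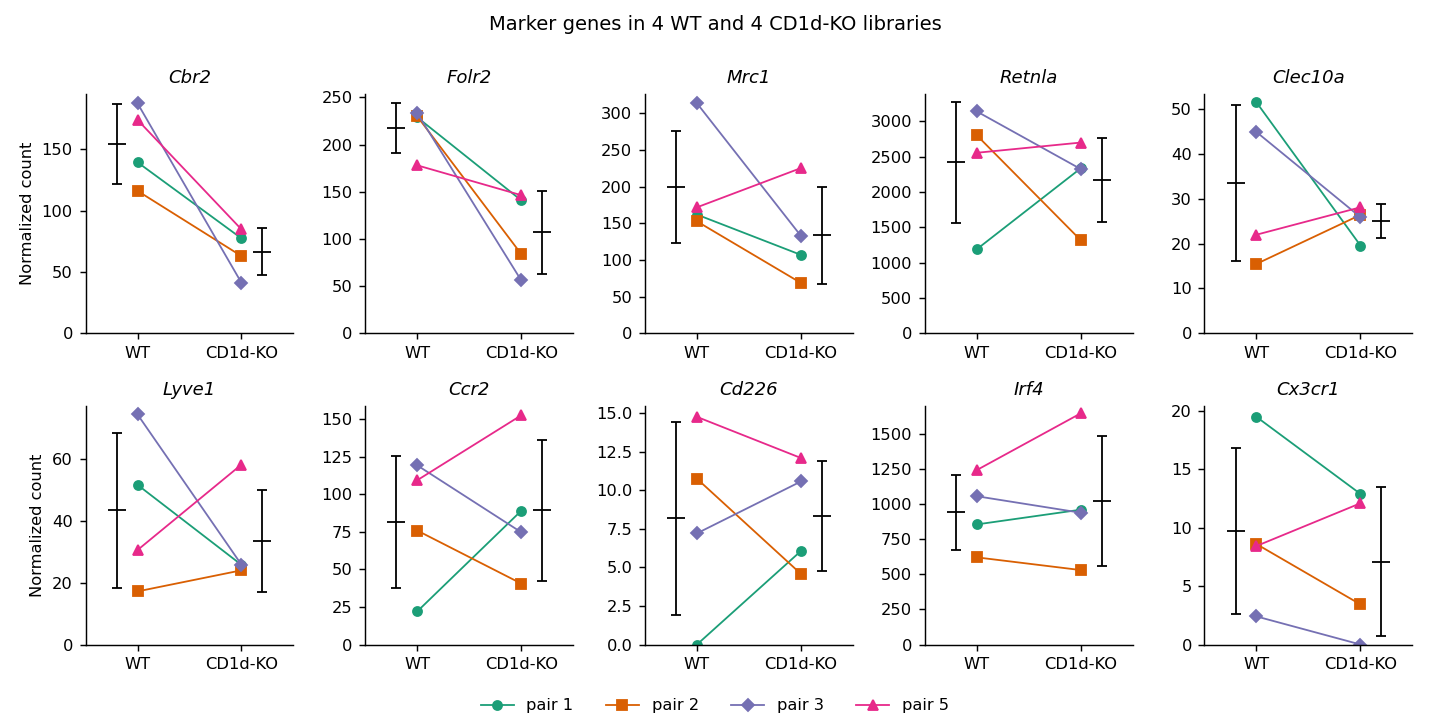
Normalized counts of the 10 markers in each library, with lines joining the WT and CD1d-KO libraries of 1 replicate number and black bars for the mean and SD of each group (n = 4). The lines of *Cbr2* and *Folr2* all slope down, and those of *Retnla*, *Clec10a*, *Lyve1*, *Ccr2* and *Irf4* cross.

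*Retnla* (ENSMUSG00000061100), on chromosome 16 from 48842551 to 48844461, is a target of STAT6 in macrophages exposed to IL-4. WT replicates 1, 2, 3 and 5 held 1189, 2804, 3141 and 2555 normalized counts. In the CD1d-KO libraries it had 2335, 1318, 2325 and 2700. WT replicate 1 and CD1d-KO replicate 2 were low, in different pairs, and the other 6 libraries lay between 2325 and 3141. The log2 fold change was -0.12 (95% interval -0.78 to 0.54, adjusted p = 0.916 from edgeR), an interval that leaves room for changes of over 1.5-fold downwards. The near copies *Retnlg* and *Retnlb* had at most 2.27 and 0 normalized counts, and no 75-base stretch of *Retnla* occurs in another gene.

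*Clec10a* (ENSMUSG00000000318), on chromosome 11 from 70156197 to 70170834, encodes a lectin that binds galactose and N-acetylgalactosamine. WT libraries had 51.5, 15.5, 44.9 and 22.0 normalized counts, and CD1d-KO libraries 19.6, 26.4, 25.9 and 28.1, for replicates 1, 2, 3 and 5. The CD1d-KO values lay within the WT range and closer together (SD 3.74 against 17.4). Its log2 fold change was -0.32 (95% interval -1.25 to 0.60, adjusted p = 0.798 from edgeR). *Clec10a* shares 4.44% of its 75-base stretches with the neighbouring lectin gene *Mgl2*, which had 18.9 to 50.7 normalized counts, and the split of reads between the 2 is uncertain. The sum of both was 63.2 in WT and 55.8 in CD1d-KO pMacs on average.

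*Lyve1* (ENSMUSG00000030787), on chromosome 7 from 110850607 to 110863239, encodes a receptor for hyaluronan. WT replicates 1, 2, 3 and 5 had 51.7, 17.2, 74.5 and 30.6 normalized counts, and the CD1d-KO replicates 25.8, 24.0, 25.9 and 58.3. Among CD1d-KO libraries replicate 5 was high and the other 3 were nearly equal, while the WT values covered both. The log2 fold change was -0.32 (95% interval -1.33 to 0.68, adjusted p = 0.816 from edgeR). *Cd44*, the related hyaluronan receptor, had between 4533 and 8306 normalized counts and a log2 fold change of -0.04 (adjusted p = 0.92).

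*Ccr2* (ENSMUSG00000049103), the chemokine receptor gene on chromosome 9 from 124101950 to 124113557, was read in WT replicates 1, 2, 3 and 5 at 22.0, 75.8, 119 and 109 normalized counts, and in the CD1d-KO replicates at 89.0, 40.6, 74.7 and 153. WT replicate 1 was the lowest library, and pair 1 alone gave a log2 ratio of 2.02. The log2 fold change was 0.21 over all pairs (95% interval -0.79 to 1.22, adjusted p = 0.898 from edgeR) and -0.31 without replicate 1. Its expected counts were not whole in any library, so its values are uncertain to the extent that RSEM divided reads. Of the CCR2 ligands *Ccl2*, *Ccl7* and *Ccl12*, the first 2 were tested, with log2 fold changes of -0.22 and -0.38, and neither passed (adjusted p = 0.747 and 0.700 from edgeR).

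*Irf4* (ENSMUSG00000021356), the transcription factor gene on chromosome 13 from 30749226 to 30766976, was read in WT replicates 1, 2, 3 and 5 at 854, 620, 1055 and 1241 normalized counts, and in the CD1d-KO replicates at 959, 530, 937 and 1644. Replicate 2 was the lowest and replicate 5 the highest in both genotypes, so that the libraries differed by number more than by genotype. Its log2 fold change was 0.05 with the narrowest interval of the 8 genes (95% interval -0.21 to 0.31, adjusted p = 0.904 from edgeR). The related factor *Irf8* directs monocyte and dendritic cell fates. It ranged from 1537 to 2232 normalized counts over WT and from 1044 to 1825 over CD1d-KO libraries. It was lower in 4 of 4 pairs (log2 fold change -0.43, adjusted p = 0.101 from edgeR and 0.00478 from DESeq2). Its fold change was under 1.5. *Batf*, a partner of IRF4 on DNA, had a log2 fold change of 0.34 (adjusted p = 0.627).

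IRF4 and MHC class II are also products of B cells, and their levels are given beside those of B cell genes. Over the 8 libraries the log2 level of *Irf4* followed the summed B cell genes with Pearson r = 0.93 (Spearman 0.83) and the summed MHC class II genes with r = 0.93 (Spearman 0.93). For *Ccr2* these values were 0.46 and 0.76, and for *Cbr2* 0.22 and 0.08. Each is over 8 libraries that share the same normalization and is given with no test. The B cell sum was lowest in replicate 2 and highest in replicate 5 in both genotypes, as *Irf4* was. The part of B cells in the *Irf4* counts was not tested.

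*Cd226* (ENSMUSG00000034028), on chromosome 18 from 89176967 to 89272229, encodes an adhesion receptor for the poliovirus receptor PVR and nectin-2. It had 0, 10, 6 and 14 counts before normalization in WT and 8, 4, 9 and 11 in CD1d-KO replicates 1, 2, 3 and 5, and a count of 0 allows up to 3 counts. *Cx3cr1* (ENSMUSG00000052336), the fractalkine receptor, on chromosome 9 from 119901616 to 120069879, had 26, 8, 2 and 8 counts in WT and 17, 3, 0 and 11 in CD1d-KO libraries. Both were under the count filter of edgeR and were not tested, and a difference between genotypes was not detectable at this depth. Their ligands were measured in the same cells. *Pvr* ranged from 841 to 1318 normalized counts over WT and from 813 to 1432 over CD1d-KO libraries, *Nectin2* had 22 to 37 in WT and 27 to 30 in CD1d-KO, and *Cx3cl1* had at most 18. *Tigit* and *Cd96*, whose products on T and natural killer cells bind PVR as CD226 does, had at most 2 and 9.

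**Figure D3:**
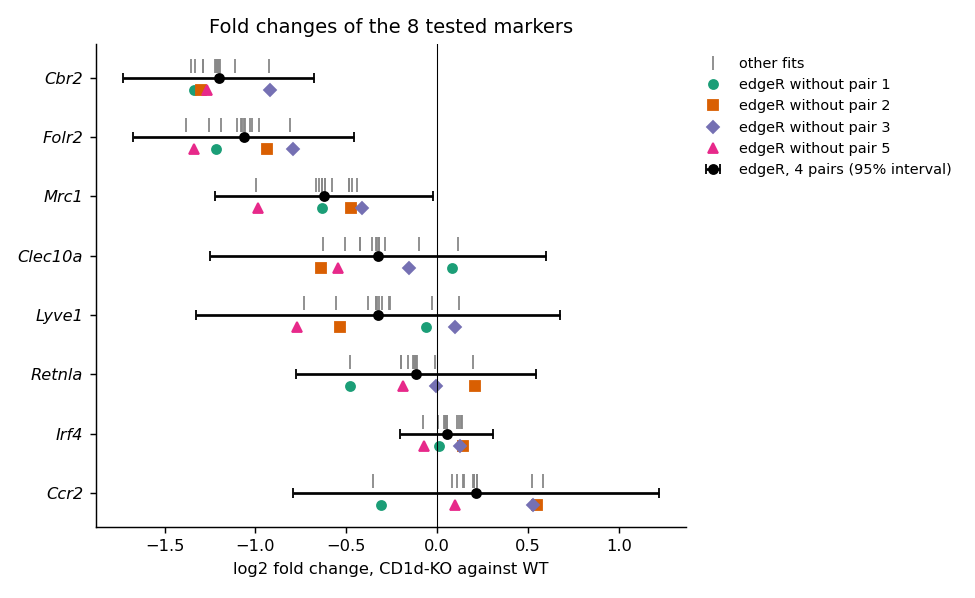
Log2 fold change of CD1d-KO against WT for the 8 tested markers. Black points and bars are edgeR with a 95% interval derived from its test over 4 pairs. Coloured points are edgeR with 1 pair left out and grey ticks are the other fits. The marks of *Cbr2*, *Folr2* and *Mrc1* all lie below 0, and those of the other 5 genes lie on both sides.

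The pairs differed in how many markers were lower in CD1d-KO pMacs. In pair 3 the CD1d-KO library was lower for all 8 tested genes. In pair 2 it was lower for 6, in pair 1 for 5 and in pair 5 for 2. How many of all tested genes were lower within each single pair was not counted. *Cbr2* and *Folr2* were the 2 that were also lower in pair 5. Levels of these 2 genes varied together over the 8 libraries, with Pearson r = 0.91 (Spearman 0.90). Other close patterns among the 28 pairs of tested members were *Retnla* with *Ccr2* (r = 0.92, Spearman 0.81), *Clec10a* with *Lyve1* (r = 0.84, Spearman 0.76) and *Mrc1* with *Lyve1* (r = 0.74, Spearman 0.83). These are descriptions over the same 8 libraries, and genotype is part of the first of them.

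**Figure D4:**
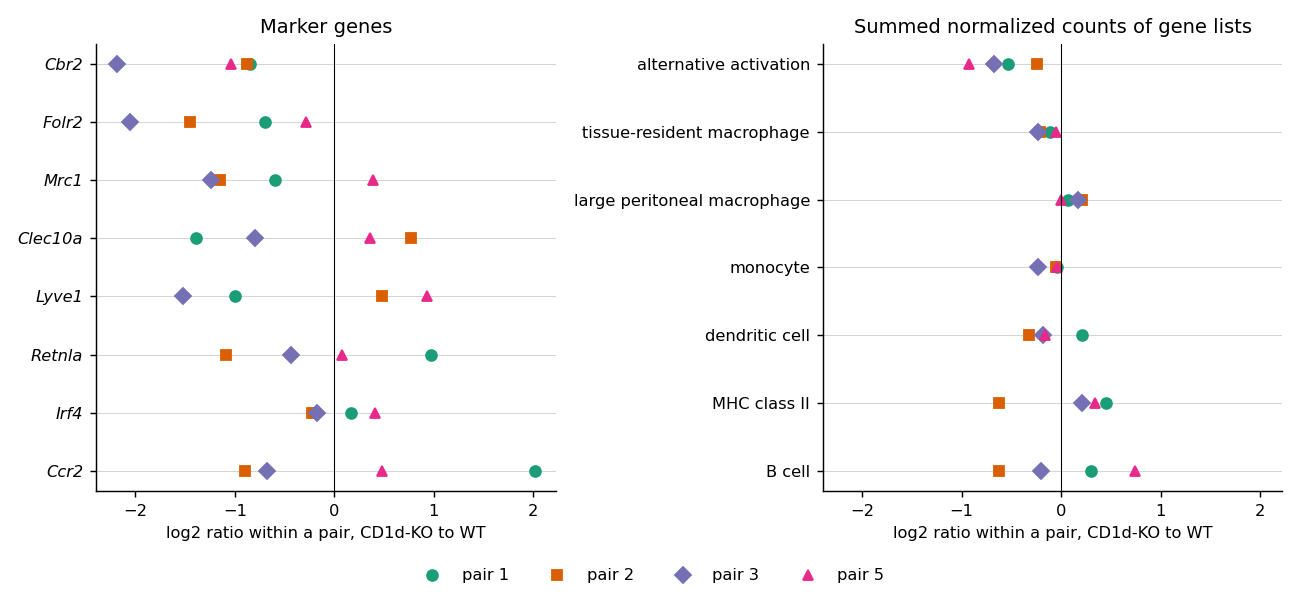
Log2 ratio of the CD1d-KO to the WT library within each of the 4 pairs, for the 8 tested markers on the left and for the summed normalized counts of 7 gene lists on the right. *Cbr2* and *Folr2* lie below 0 in every pair, and *Ccr2* spreads from -0.90 to 2.02. The large macrophage list lies close to 0 while the B cell list spreads from -0.62 to 0.74.

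The gene whose level followed *Cbr2* most closely, among 9942 tested genes with a mean of at least 50 normalized counts, was *Sike1* (r = 0.956), followed by *Ninl* (0.953) and *Slc25a15* (0.939). Among the closest genes for *Folr2* were *Ube2n* (0.940) and *Tiprl* (0.934), and for *Mrc1* they were *Ddx5* (0.951), *Mtpn* (0.941) and *Cnn3* (0.933). The closest gene was *Krt80* for *Retnla* (0.969), *Srsf11* for *Clec10a* (0.972), *Nprl3* for *Lyve1* (0.974), *Tmsb10* for *Ccr2* (0.963) and *Nup210* for *Irf4* (0.989). All are Pearson correlations of log2 CPM over 8 libraries, each chosen among the highest of 9942 values, and are given as a description.

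Lists of genes of the same and of neighbouring cell types were set beside the markers. Over all tested genes, 5.01% were lower and 7.35% higher at an unadjusted p under 0.05 in edgeR. Being lower in 4 of 4 pairs held for 1310 of the 13040 tested genes. In the list of other resident macrophage genes, 10 of 14 were tested and 0 passed in edgeR, where 2 were lower and 1 higher at an unadjusted p under 0.05. *Cd163*, the haemoglobin scavenger receptor, had values of 385, 376, 240 and 277 in WT replicates 1, 2, 3 and 5 and of 151, 180, 68.1 and 265 in the CD1d-KO replicates. It was lower in 4 of 4 pairs (log2 fold change -1.03, adjusted p = 0.149 from edgeR and 0.00654 from DESeq2), and its level followed that of *Folr2* with r = 0.89 (Spearman 0.71). DESeq2 no longer called *Cd163* without replicate 1, 2 or 3 (adjusted p = 0.203, 0.028 and 0.122). The chemokine gene *Pf4* was lower in 4 of 4 pairs (log2 fold change -0.52, adjusted p = 0.0731 from edgeR and 2.7e-05 from DESeq2), but its fold change was under 1.5.

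Of the 16 genes of the alternative programme, 15 were tested and 0 passed in edgeR. At an unadjusted p under 0.05, 5 were lower and 0 higher, against 5.01% and 7.35% of all genes. *Egr2*, a transcription factor of that programme, had a log2 fold change of -0.56 (adjusted p = 0.115), and *Ccl24*, the eosinophil chemokine eotaxin-2, one of -0.76 (adjusted p = 0.121, both from edgeR). The other 3, named after their values were seen, were *Arg1*, *Clec7a* and *Ccl22*, with log2 fold changes of -0.92, -0.51 and -0.53. In DESeq2 the adjusted p was 0.00108 for *Egr2* and 0.000706 for *Clec7a*, but their fold changes were under 1.5. For *Arg1* and *Ccl22* it was 0.0868 and 0.159. DESeq2 called 1 gene of the list, *Ccl24* (adjusted p = 9.79e-05), which was lower in 4 of 4 pairs. It was still called without replicate 2 (log2 fold change -0.93, adjusted p = 1.13e-09). Without replicate 1 or 3 the DESeq2 log2 fold change was much the same, at -0.79 and -0.75, but the adjusted p was 0.844 and 0.593. Without replicate 5 the adjusted p was 0.00669 and the log2 fold change, -0.58, fell short of 1.5-fold. The median of the list was -0.15. *Il4ra*, *Il13ra1* and *Stat6*, which encode receptor chains for IL-4 and IL-13 and the factor they activate, had log2 fold changes of 0.04, 0.14 and -0.10 and did not pass. The sum of the list, of which *Ccl24* and *Clec7a* were the largest parts in every library, was 53680 to 82200 in WT and 33450 to 57020 in CD1d-KO libraries. The ranges overlapped, but within pairs 1, 2, 3 and 5 the CD1d-KO sum was the lower one each time, with log2 ratios of -0.53, -0.24, -0.68 and -0.93. Over the 8 libraries this sum followed *Cbr2* (r = 0.75, Spearman 0.64) and *Folr2* (r = 0.72, Spearman 0.60), with genotype again part of both.

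In the list of large peritoneal macrophage genes 0 of 13 passed in edgeR. At an unadjusted p under 0.05, 4 were higher and 0 lower, against 7.35% and 5.01% of all genes. *Garnl3* had a log2 fold change of 0.65 (adjusted p = 0.194) and *Timd4*, which binds phosphatidylserine on dying cells, one of 0.39 (adjusted p = 0.201, both from edgeR), and both were higher in 4 of 4 pairs. *Gata6* had a log2 fold change of -0.09 (adjusted p = 0.879 from edgeR) and was lower in 2 pairs and higher in 2. *Prg4* and *Itgam* were the largest parts of the sum of this list in every library. Over the 8 libraries that sum ran against *Folr2* (r = -0.90, Spearman -0.81) and against *Cbr2* (r = -0.70, Spearman -0.67), with genotype again part of both. The median log2 fold change of the list was 0.19. The part of the mix of macrophage types in the levels of *Cbr2* and *Folr2* was not tested.

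Among genes of monocytes 9 of 10 were tested, of which 6 were higher and 3 lower, with a median log2 fold change of 0.20. The 3 lower ones were *F13a1*, *Hp* and *Ace* (log2 fold changes -0.38, -0.24 and -0.14, adjusted p = 0.568, 0.512 and 0.919 from edgeR). *Hp* and *F13a1* were the largest parts of the sum of the list, whose log2 ratios were -0.04, -0.05, -0.23 and -0.04 in pairs 1, 2, 3 and 5. *Vcan*, which encodes versican, a proteoglycan made by monocytes, rose at an adjusted p = 0.0435 from edgeR with no fold threshold (log2 fold change 0.64, higher in 4 of 4 pairs), and it was the only gene of the lists past that threshold. Its log2 fold change stayed between 0.55 and 0.71 in edgeR when any 1 replicate was left out, with adjusted p from 0.0577 to 0.195. DESeq2 called *Vcan* higher by the study's thresholds (log2 fold change 0.64, adjusted p = 4.61e-05), and also without replicate 1, 2 or 3 (adjusted p = 0.00103, 0.00751 and 0.000942), but not without replicate 5 (adjusted p = 0.0209). *Ly6c2*, which defines classical monocytes, had at most 22 normalized counts and was not tested. All 7 MHC class II genes and 5 of 8 dendritic cell genes were tested and 0 passed. *H2-DMa* and *H2-DMb1*, which load peptides on MHC class II, had log2 fold changes of 0.25 and 0.26 (adjusted p = 0.633 and 0.646), and the integrin gene *Itgax* one of -0.48 (adjusted p = 0.358, all from edgeR).

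Genes of other cells that a lavage can hold are given for the whole lists. All 8 B cell genes were tested and 0 passed. Of 11 T and natural killer cell genes 2 were tested, and 3 had at most 3 counts in every library. Of the 5 eosinophil genes 3 were tested, and *Epx* and *Prg2* had at most 1.05 and 3.52 normalized counts. Of the 7 mast cell genes 5 were tested, and *Hdc*, which encodes the enzyme that makes histamine, had a log2 fold change of 0.81 (adjusted p = 0.0555 from edgeR) and was called higher by DESeq2, also when any 1 replicate was left out. The other 4, *Kit*, *Tpsb2*, *Cma1* and *Mcpt4*, had log2 fold changes of -0.85, -0.54, -0.48 and -0.27 in edgeR (adjusted p from 0.598 to 0.913), each lower in 3 of 4 pairs, and the median of the list was -0.48. Of the 8 neutrophil genes 3 were tested. *S100a8* and *Csf3r* were higher in 4 of 4 pairs (log2 fold changes 0.83 and 0.37, adjusted p = 0.101 and 0.164 from edgeR). *Mmp8* was lower in 4 of 4 (log2 fold change -0.87, adjusted p = 0.379 from edgeR). *S100a9*, whose protein pairs with that of *S100a8*, had at most 1 count in WT and 0 in CD1d-KO libraries, and *Camp* had at most 6 counts. Of the 8 endothelial genes 4 were tested, with *Flt4* at a log2 fold change of 1.01 (adjusted p = 0.169) and *Tie1* at 0 counts. No mesothelial or fibroblast gene was tested, and their summed level ranged from 4.22 to 16.1 normalized counts over WT and from 12.6 to 81.1 over CD1d-KO libraries. Whether cells of these types had a part in the marker levels was not tested.

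**Figure D5:**
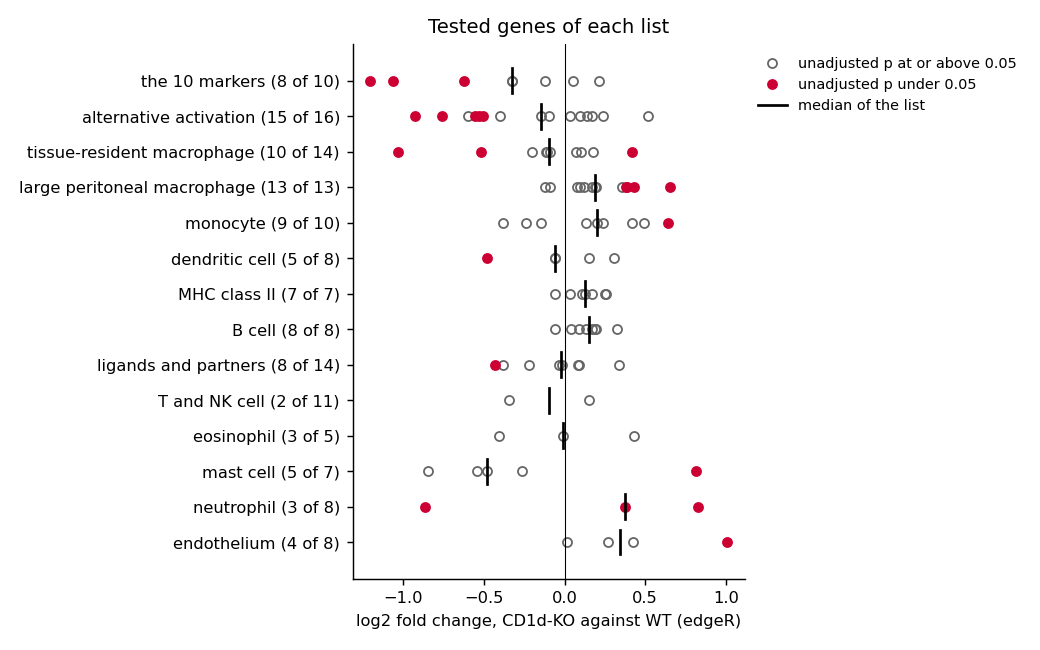
Log2 fold changes from edgeR of every tested gene of the 10 markers and of 13 other lists, with the number tested of the number listed. Filled points have an unadjusted p under 0.05 and bars are medians. The markers have the 2 lowest single values of all lists, *Cbr2* and *Folr2*, and the large macrophage list lies mostly above 0.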

How the data were processed

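Polyadenylated RNA of pMacs of 8 mice (4 WT, 4 CD1d-KO) was sequenced in single-end reads of 75 bases. Per the submitters' processing notes, the authors trimmed reads with cutadapt, used STAR 2.5.2a for alignment to GRCm38 and RSEM 1.3.0 for counting on Ensembl genes. The strand setting is not given in the sources used here. The deposited files hold RSEM's expected counts, which are not normalized and in which a read matching several genes is divided among them, and the authors' TPM values, which are scaled for transcript length and library.

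After rounding, expected counts were scaled with TMM in edgeR 4.0.16. Genes passing its filterByExpr function were tested with the quasi-likelihood test, with replicate number and genotype in the model as in the study, with Benjamini-Hochberg adjustment over all tested genes. The call needed a fold above 1.5 and an adjusted p under 0.01. Positive log2 fold changes mean higher in CD1d-KO. Alternatives were DESeq2 1.42.0, limma 3.58.1 on log2(TPM + 1), other normalizations and filters, no block, and leaving out each replicate. The study itself used DESeq2, in an earlier version. The fits were tested on simulated data. Depth limits genes under about 10 counts, such as *Cd226* and *Cx3cr1*. Symbols, coordinates and transcripts came from GENCODE M21, in which each of the 10 symbols matched 1 gene ID, and promoters from RefSeq. With the replicate number in the model, p-values measure the spread of the CD1d-KO to WT difference over the pairs of mice. Without it they measure the spread between mice of a genotype.

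Libraries with the same replicate number deviated together: the correlation of their deviations from the group means was 0.487, 0.387, 0.505 and 0.207 for replicates 1, 2, 3 and 5. The highest correlation with a library of another number was 0.059 or less for replicates 1, 2 and 3 but 0.22 for replicate 5, so pair 5 was no closer than libraries of different number. As each same-number correlation was over 0.1, the numbers were taken to pair the libraries. No library was a copy of another (smallest chi-square per degree of freedom 14.6 over 28 pairs). The markers and lists were chosen with earlier results of these data known. Named genes were the 10 markers, *Cd1d1*, listed paralogs, from each list the genes past either threshold in edgeR or else the 2 with the smallest unadjusted p, defining markers at 0 or under the filter, and for each tested marker the 3 genes with the highest correlation. Some genes that these rules name are not reported here.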

Additional observations from a re-analysis of the deposited data

Results flagged for a closer look

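In groups of 4 libraries, a library was marked where its gap to the nearest other took up more of the group's range than Dixon's test allows at the 95% level, which chance alone does in about 1 of 20 groups. Among the 10 markers this held for *Folr2* in WT replicate 5, which was low at 178 normalized counts, for *Mrc1* in WT replicate 3, which was high at 314, and for *Lyve1* in CD1d-KO replicate 5, which was high at 58.3. *Cd1d1* was marked in the library labelled CD1d-KO replicate 1, high at 60.6 normalized counts.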

How the results depend on the processing

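*Cbr2*, *Folr2* and *Mrc1* kept a lower level in CD1d-KO under each of the 16 alternatives run for a marker, with log2 fold changes from -1.35 to -0.92, -1.38 to -0.79 and -0.99 to -0.41 and adjusted p from 0.000145 to 0.757, 0.000605 to 0.997 and 0.0499 to 0.9998. In edgeR, 5 genes were called over 4 pairs, 53 at an adjusted p under 0.05 with no fold threshold, 236 with no filter on counts and 3 by limma on log2(TPM + 1), and DESeq2 called 103. Of the markers, 0 were called by edgeR, 1 by DESeq2 (*Cbr2*) and 2 with no filter (*Cbr2* and *Folr2*). Without the replicate block, where only the number that pairs the libraries was dropped, 3 genes and 0 markers were called, the median of the markers was -0.40 and the adjusted p of *Cbr2* was 0.509. Leaving out each replicate in turn, edgeR called from 3 to 22 genes and 0 markers, and DESeq2, added after seeing the data, called 55, 203, 86 and 54 genes and 0, 1, 0 and 1 markers without replicates 1, 2, 3 and 5. Over the same fits the log2 fold change ranged from -0.477 to 0.206 for *Retnla*, -0.639 to 0.084 for *Clec10a*, -0.771 to 0.097 for *Lyve1*, -0.307 to 0.551 for *Ccr2* and -0.072 to 0.142 for *Irf4* in edgeR. The median of the markers ranged from -0.66 to -0.05 when a replicate was left out. The direction reversed for *Retnla* without replicate 2 (0.21 in edgeR, 0.20 in DESeq2), *Clec10a* without replicate 1 (0.084 and 0.117), *Lyve1* without replicate 3 (0.097 and 0.122), *Ccr2* without replicate 1 (-0.31 and -0.35) and *Irf4* without replicate 5 (-0.072 and -0.077). Ordered by the mean of log2(TPM + 1), *Mrc1* and *Clec10a* changed places in WT, and *Clec10a* came before *Mrc1* and *Ccr2* in CD1d-KO. The causes were not tested.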
